A study of Sus scrofa with 6 samples.

Results

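The genes described here are 10 enzymes of glycolysis and of lactate formation in their skeletal muscle form, picked by name for their place in the pathway: HK2, GPI, PFKM, ALDOA, GAPDH, PGK1, PGAM2, ENO3, PKM and LDHA. Earlier results of these data were known when the 10 were chosen. All 10 were found among the 31908 Ensembl genes of the deposited table, 7 by their symbol. GAPDH, PKM and LDHA carry no symbol in the table and were found by their Ensembl gene IDs, ENSSSCG00000000694, ENSSSCG00000001930 and ENSSSCG00000013366. All 10 were above the minimum level for testing, a mean of 0.1 FPKM, as were 12843 protein-coding genes in all. FPKM counts fragments relative to transcript length and to the fragments of the library, so it allows levels to be compared between genes of different length.

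Glycolysis splits glucose into pyruvate in the cytosol and yields ATP without oxygen. Hexokinase and phosphofructokinase are its regulated entry steps, the enzymes from aldolase to enolase make and convert smaller phosphate compounds, and pyruvate kinase makes pyruvate. Lactate dehydrogenase then turns pyruvate into lactate and regenerates the NAD+ that glycolysis needs. Most steps have several isozymes from different genes. Fast muscle fibres are known for a high content of these enzymes, while slow fibres and the heart rely more on the mitochondria and on the LDHB form of lactate dehydrogenase.

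RNA was taken from longissimus dorsi (LD), a muscle along the back, of 6 Laiwu pigs, a fatty Chinese breed. All were males, castrated according to the text of the study and listed as boars in its table of animals, and no ages are given. The S-H group held 3 pigs with an extremely high intramuscular fat (IMF) content (LW63, LW70 and LW119) and the S-L group 3 pigs with an extremely low IMF content (LW82, LW88 and LW90). No treatment was given, and each pig gave 1 library of total RNA without ribosomal RNA. The deposited values are normalized and the depth behind a value is unknown. The pigs were chosen from the ends of the IMF range, so the groups differ in fat within the sampled muscle. In whole muscle, fewer fibres of a type and less RNA per fibre cannot be told apart.

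The summed FPKM of a library lay between 638536 and 846661, and 46.6% to 64.7% of it came from short structural RNAs (signal recognition particle RNA and the RNA parts of RNase MRP and RNase P). Muscle fibre markers were abundant in every pig, among them DES, the desmin of the intermediate filaments, at 1431 to 4830 FPKM. With limma, 175 of the 12843 genes (1.36%) passed, meaning that the unadjusted p was below 0.01 and the log2 fold change was 1 or more in size. Of these, 150 (1.17% of those tested) were higher and 25 lower in S-H. With median-ratio size factors the split was 85 higher and 56 lower, and with quantile normalization it was 70 higher and 63 lower. After Benjamini-Hochberg adjustment of the limma p-values, 0 genes were below 0.05, while 1048 (8.16%) had an unadjusted p below 0.05. Over all tested genes the log2 fold change had a median of 0.21 in FPKM and of 0.0064 with median-ratio size factors.

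The 10 enzymes differed widely in level along the pathway. GAPDH, the dehydrogenase of glyceraldehyde 3-phosphate, had a mean of 13746 FPKM over the 6 pigs and was the second most abundant of all tested genes, after the mitochondrial gene COX1. ALDOA, the muscle aldolase, had 4517 FPKM and ranked 4. ENO3, the muscle enolase, had 1321 FPKM, PGAM2, the muscle phosphoglycerate mutase, 629 FPKM, and LDHA 409 FPKM. PGK1, phosphoglycerate kinase, followed with 337 FPKM, PFKM, the muscle phosphofructokinase, with 238 FPKM, and PKM, pyruvate kinase, with 182 FPKM. The first 2 enzymes of the pathway were the lowest, GPI, the glucose phosphate isomerase, at 35.8 FPKM and HK2, the muscle hexokinase, at 6.81 FPKM. Thus 8 of the 10 enzymes were among the 500 most abundant genes and 5 among the 100 most abundant, while HK2 ranked 4346.

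The order of the levels was compared between neighbours within each pig by exact two-sided sign-flip permutation tests over the 6 pigs, for which 0.03125 is the smallest p. The pairs and their direction were set by the means of the same 6 pigs, so the tests are no independent evidence for the order. They only record whether a pair kept its direction. Any pair with 6 of 6 pigs in the same direction gets the smallest p, whatever the spread of its ratio. In 7 of the 9 neighbouring pairs the gene with the higher mean was higher in 6 of 6 pigs (exact p = 0.03125 for each, adjusted p = 0.0402 over the 9 pairs). LDHA was above PGK1 in 4 of 6 pigs (p = 0.375 by the same exact test, adjusted p = 0.375), and PFKM was above PKM in 5 of 6 pigs (p = 0.3125 by the same exact test, adjusted p = 0.352). The neighbours LDHA and PGK1, and PFKM and PKM, did not differ beyond their spread. The ratio of GAPDH to ALDOA was the most even of the 9 between pigs, at a log2 value of 1.61 ± 0.23 (SD, n = 6).

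**Figure D1:**
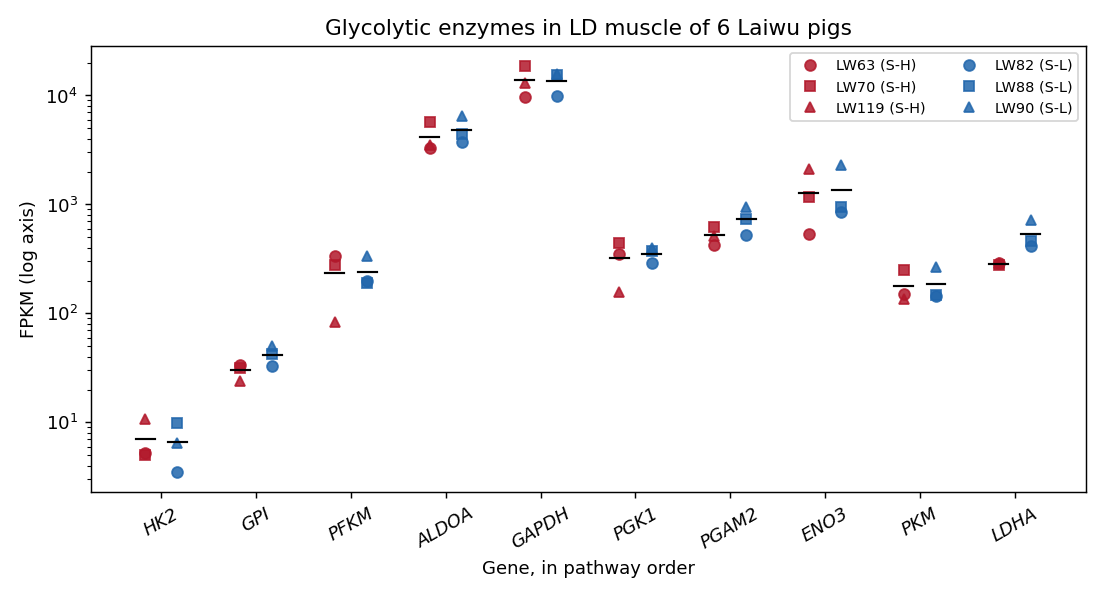
FPKM (log axis) of the 10 glycolytic enzymes in pathway order, with 1 point per pig (S-H red, S-L blue) and a black bar at each group mean of 3 pigs. The points span from 3.51 FPKM for HK2 in LW82 to 18562 FPKM for GAPDH in LW70, and LDHA is the only one of the 10 genes whose S-H points all lie below its S-L points.

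Between the groups, 9 of the 10 enzymes had a log2 fold change below 0, that is a lower mean log2 level in S-H, where 25.9% of all tested genes did. None of the 10 passed the thresholds, and 1 of them, LDHA, had an unadjusted p below 0.05 with a lower value in S-H, where 1.1% of all tested genes did. Under other scalings GPI also reached that level, with unadjusted p = 0.0491 for median-ratio size factors, 0.0326 for quantile normalization and 0.0407 for TPM without structural RNAs (limma), as did PGAM2 with unadjusted p = 0.0223 for quantile normalization (limma). With TPM both were weaker, at log2 fold changes of -0.33 for GPI and -0.34 for PGAM2 (unadjusted p of 0.239 and 0.359 from limma). The median log2 fold change of the 10 was -0.22, against 0.21 for all tested genes. On the FPKM scale, the sign of several of them rested on LW90. Without that S-L pig, 6 of the 10 had a log2 fold change above 0 and the median was 0.02, against 0.12 for all tested genes. With all pigs and median-ratio size factors, 0 of the 10 were above 0 and the median was -0.44, against 0.0064 for all tested genes. Without LW63 or without LW119, 4 of the 10 were above 0.

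LDHA, the muscle form of lactate dehydrogenase, lies on chromosome 2 (40812453 to 40826715 of Sscrofa11.1). It had 289 FPKM in LW63, 279 FPKM in LW70 and 291 FPKM in LW119, and 417 FPKM in LW82, 458 FPKM in LW88 and 719 FPKM in LW90. The 3 S-H pigs were close together and all below the S-L pigs, among which LW90 stood highest. S-H averaged 286 ± 6.83 FPKM and S-L 531 ± 164.1 FPKM (SD, n = 3 each), a ratio of 0.539. From limma, the log2 fold change was -0.85 ± 0.28 (SE), at an unadjusted p of 0.0131 (adjusted p = 0.577 by Benjamini-Hochberg). An exact permutation test (two-sided) gave p = 0.10, the lowest value that 3 pigs against 3 can reach. Every S-H pig below every S-L pig was found for 1.7% of all tested genes. Without LW90 the log2 fold change was -0.61 (unadjusted p of 0.0718 from limma). Relative to the median of all tested genes the difference was -1.06 on the FPKM scale and -1.08 with median-ratio size factors. LDHA passed both thresholds in 1 other setting, quantile normalization, at a log2 fold change of -1.07 (unadjusted p of 0.00336 from limma). The log2 fold change was smaller in size, at -0.71, both with TPM and with the values as deposited (unadjusted p of 0.0468 and 0.0421 from limma).

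HK2 and GPI, the first enzymes of the pathway, differed in sign on the FPKM scale. HK2, which phosphorylates glucose, had 5.26 FPKM in LW63, 5.02 FPKM in LW70 and 10.7 FPKM in LW119, and 3.51, 9.95 and 6.42 FPKM in LW82, LW88 and LW90. Its groups overlapped fully (limma log2 fold change 0.11 ± 0.42 SE, adjusted p = 0.945). The sign of HK2 changed with the scaling, at -0.11 with median-ratio size factors and 0.24 with TPM. GPI had 33.9, 31.7 and 24.2 FPKM in LW63, LW70 and LW119 (S-H), and 32.7, 42.1 and 49.9 FPKM in LW82, LW88 and LW90 (S-L). The groups overlapped only through LW82, which lay below LW63 (limma log2 fold change -0.46 ± 0.25 SE, unadjusted p = 0.0983).

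PFKM, the committed step of the pathway, had 336, 280.5 and 83.9 FPKM in LW63, LW70 and LW119, and 200.1, 191 and 334 FPKM in LW82, LW88 and LW90. LW119 stood 4.01-fold below LW63, the highest pig, and the other S-H pigs were within the range of the S-L group or above it. The log2 fold change was -0.23 (standard error 0.49), and without LW119 it was 0.39. ALDOA (chromosome 3, 18234787 to 18260256) had 3273, 5756 and 3532 FPKM in LW63, LW70 and LW119, and 3705, 4408 and 6429 FPKM in LW82, LW88 and LW90. LW70 was above LW82 and LW88, and the log2 fold change was -0.22 (standard error 0.38). A transcript of another Ensembl gene without a symbol, ENSSSCG00000046707, covers the same stretch and had between 695 and 2190 FPKM, equal to 15.9% to 38.0% of ALDOA, so the reads of the locus may be divided between both entries. With that gene added, the log2 fold change of ALDOA was -0.16.

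GAPDH (chromosome 5, 64129680 to 64133991) had 9788, 18562 and 13060.0 FPKM in LW63, LW70 and LW119, and 9871, 15436 and 15758 FPKM in LW82, LW88 and LW90. The means of the groups were close, with 13803 ± 4434 FPKM for S-H and 13688 ± 3310 FPKM for S-L (SD, n = 3 each), and the log2 fold change was -0.01 (standard error 0.43). PGK1, on chromosome X, had 354, 447 and 157 FPKM in LW63, LW70 and LW119, and 288, 375 and 398 FPKM in LW82, LW88 and LW90. As for PFKM, LW119 was the lowest pig and LW70 and LW63 were within or above the S-L range (log2 fold change -0.26 ± 0.38 SE). GAPDH is often taken as a reference gene, and here it differed 1.90-fold between the highest and the lowest pig. This was the smallest such fold of the 10 enzymes, in FPKM that were not scaled further between libraries.

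PGAM2 had 427, 619 and 518 FPKM in LW63, LW70 and LW119, and 522, 732 and 952 FPKM in LW82, LW88 and LW90. Only LW70 among the S-H pigs was above the lowest S-L pig (limma log2 fold change -0.47 ± 0.31 SE, unadjusted p = 0.159). ENO3 had 531, 1181 and 2125 FPKM in LW63, LW70 and LW119, and 856, 947 and 2288 FPKM in LW82, LW88 and LW90. It varied most of the 10, 4.31-fold between LW90 and LW63, with LW119 and LW90 far above the other 4 pigs (log2 fold change -0.16 ± 0.54 SE). PKM had 150.1, 250.2 and 135 FPKM in LW63, LW70 and LW119, and 144, 149 and 266 FPKM in LW82, LW88 and LW90. LW70 and LW90 were the high pigs, 1 in each group (log2 fold change -0.06 ± 0.33 SE).

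**Figure D2:**
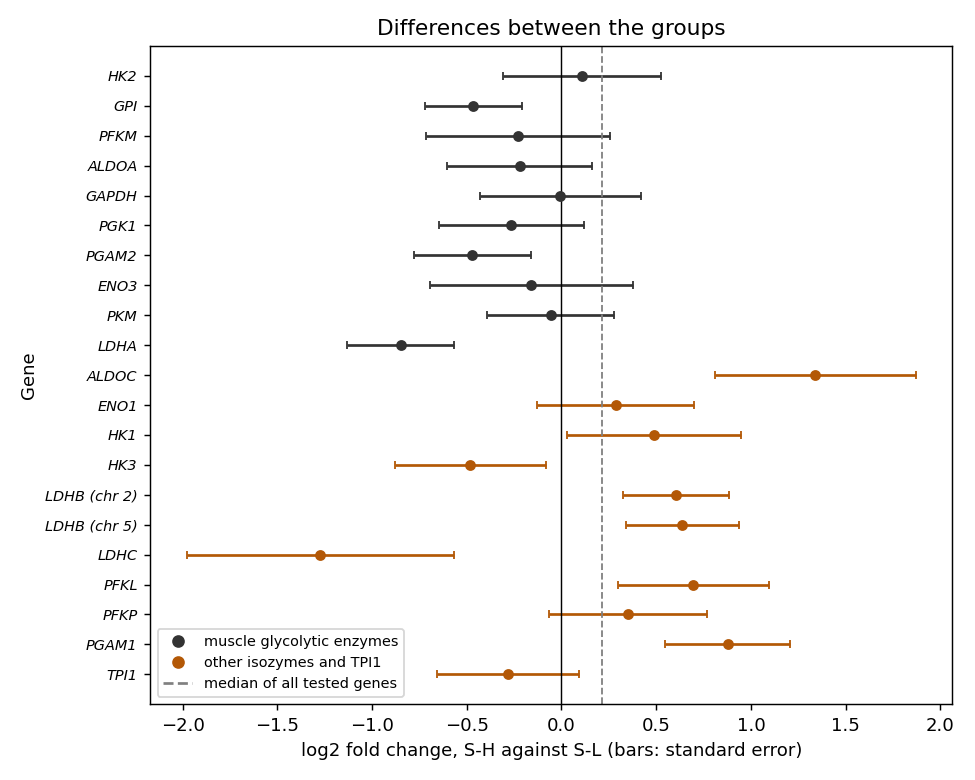
Log2 fold change of S-H against S-L from limma, with standard errors as bars, for the 10 muscle enzymes (black) and for TPI1 and the tested isozymes of the same steps (brown). The dashed line is the median of all tested genes, 0.21, and LDHA at -0.85 is the lowest of the black points while 8 of the 10 tested isozyme entries lie above 0.

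Single pigs stood out across several enzymes. LW90 (S-L) was the highest pig for 6 of the 10 enzymes and among the 2 highest for 9 of them, and it was the highest S-L pig for 9. LW70 (S-H) was the highest pig for 2 and the highest S-H pig for 5. LW63 and LW119 were the lowest pig for 4 enzymes each. The summed FPKM of the 10 enzymes was 15188 in LW63, 27411 in LW70 and 19938 in LW119, against 16039 in LW82, 22747 in LW88 and 27201 in LW90. This sum was 2.84% ± 0.868 of all FPKM for S-H and 2.73% ± 0.770 for S-L (SD, n = 3 each; exact permutation, two-sided, p = 0.80). With the structural RNAs left out of the total, the shares were 5.89% ± 1.40 and 6.79% ± 1.53 (SD, n = 3 each; exact permutation, two-sided, p = 0.50). GAPDH and ALDOA together made up 81.6% to 88.7% of the sum in every pig.

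TPI1, the triose phosphate isomerase, completes the pathway and has no other isozyme. It had 619.5 FPKM in LW63, 967 FPKM in LW70 and 613 FPKM in LW119, and 532, 956 and 1294 FPKM in LW82, LW88 and LW90. The groups overlapped (log2 fold change -0.28 ± 0.37 SE), and again LW70 was the high S-H pig and LW90 the high S-L pig. Of all tested genes outside the 10, TPI1 had the values most like the mean log2 level of the 10 over the 6 pigs (Pearson r 0.976, Spearman's rho 0.943). The next 4 genes were ZNF219 (r 0.970), ADSS1, the muscle adenylosuccinate synthase (r 0.958), TMEM238 (r 0.956) and MYBPH, a myosin binding protein (r 0.941). These 5 had the highest coefficients of all tested genes, each over 6 points that share their libraries, so they are a description without a test.

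The other isozymes of the same steps were mostly weakly expressed. Of 15 isozymes described here, all were found in the table, and 9 of them, at 10 loci, reached the minimum for testing. At 8 of these 10 loci the log2 fold change was above 0, as for 74.1% of all tested genes, the median was 0.55, and none passed the thresholds. An unadjusted p below 0.05 with higher values in S-H was found for 2 of the 10, PGAM1 and ALDOC, where 7.06% of all tested genes reached it. The forms PGK2, GAPDHS and PKLR were at most 0.0611 FPKM in any pig, and PGK2 was listed at 0 in all of them. ENO2, ENO4 and HKDC1 were also under the minimum.

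PGAM1, the ubiquitous phosphoglycerate mutase, had 24.9, 17.1 and 39.8 FPKM in LW63, LW70 and LW119, and 14.9, 16.99 and 10.7 FPKM in LW82, LW88 and LW90. The values of S-H pigs all exceeded those of S-L pigs, though LW70 and LW88 nearly met, which was found for 13.1% of all tested genes (limma log2 fold change 0.88 ± 0.33 SE, unadjusted p = 0.0241, adjusted p = 0.583). ALDOC, the brain form of aldolase, had 10.99 FPKM in LW63, 1.84 FPKM in LW70 and 4.72 FPKM in LW119, against 1.56 to 2.21 FPKM in S-L (limma log2 fold change 1.34 ± 0.53 SE, unadjusted p = 0.0305). LW70 lay within the S-L range. ENO1, the ubiquitous enolase, was highest in LW119 (57.2 FPKM) and between 17.6 and 32.4 FPKM in the other 5 pigs. HK1 and PFKL, forms found in most tissues, were also highest in LW119, at 7.53 and 9.34 FPKM. HK3 (2.53 to 8.75 FPKM) and PFKP (1.78 to 5.88 FPKM) also had overlapping groups.

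LDHB, the heart form of lactate dehydrogenase, had 2 entries. The gene with introns on chromosome 5 (51810943 to 51831217), ENSSSCG00000000576, has no symbol in the table and was named by its position on the RefSeq gene. It had 326 FPKM in LW63, 213 FPKM in LW70 and 205 FPKM in LW119, and 209, 148 and 122 FPKM in LW82, LW88 and LW90. The groups overlapped only where LW82 exceeded LW119 (limma log2 fold change 0.64 ± 0.30 SE, unadjusted p = 0.0581, adjusted p = 0.615). The entry that the table names LDHB is a short locus on chromosome 2 (12988708 to 12990067), where RefSeq lists both a gene of that name and a pseudogene. Its level was between 11.8% and 12.8% of that of the chromosome 5 gene in each of the 6 pigs, so the reads of these copies may have been divided between them, and both values are uncertain to that extent.

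The balance of both forms was taken as LDHA over the sum of both LDHB entries and the weak testis form LDHC. This ratio was 0.793 in LW63, 1.16 in LW70 and 1.26 in LW119, and 1.76 in LW82, 2.71 in LW88 and 5.24 in LW90. Every S-H pig was below every S-L pig. As a share, LDHA made up 51.2% ± 6.13 of the lactate dehydrogenase FPKM for S-H and 73.6% ± 10.1 for S-L (SD, n = 3 each). The log2 ratio differed by -1.48 between the groups (exact permutation, two-sided, p = 0.10, which is the minimum for 3 pigs against 3, and adjusted p = 0.60 over 6 steps). Without LW90 the difference was -1.06. A ratio within a library does not depend on a scaling common to all its rows. LDHA and LDHB on chromosome 5 were converted from TPM by the same factor in each pig, while LDHB on chromosome 2 and LDHC were not. With LDHB on chromosome 5 only, the difference over all 6 pigs was again -1.48.

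**Figure D3:**
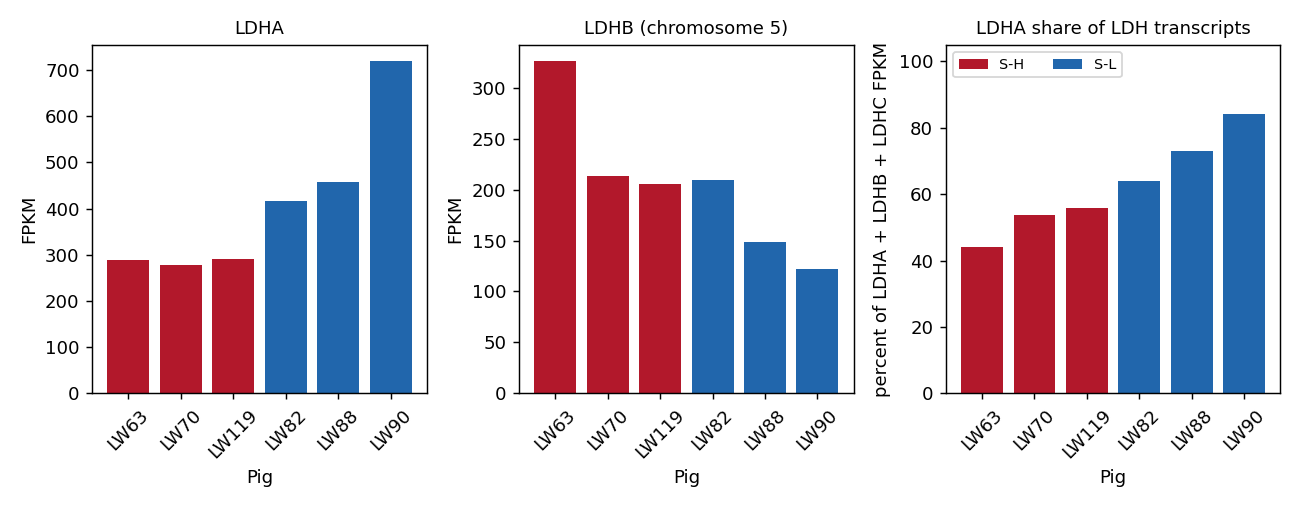
FPKM of LDHA and of LDHB on chromosome 5, and the share of LDHA in the summed FPKM of LDHA, LDHB and LDHC in percent, with 1 bar per pig from 0 (S-H red, S-L blue). LDHA is between 279 and 291 FPKM in S-H and between 417 and 719 FPKM in S-L, and its share is between 44.2% and 55.7% in S-H and between 63.8% and 84.0% in S-L.

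At the other 5 steps with more than 1 measured isozyme, the groups overlapped in the same ratio. PGAM2 was 17.2, 36.1 and 13.0 times PGAM1 in LW63, LW70 and LW119, and 35.2, 43.1 and 88.7 times PGAM1 in LW82, LW88 and LW90. The log2 ratio differed by -1.35 (exact permutation, two-sided, p = 0.20, adjusted p = 0.60), and only LW70 was above the lowest S-L pig. The log2 ratio of ALDOA to ALDOC differed by -1.56 (exact permutation, two-sided, p = 0.30, adjusted p = 0.60), where LW63 with its high ALDOC had the lowest ratio. For phosphofructokinase, enolase and hexokinase the differences were -0.75, -0.45 and 0.24 (exact permutation, two-sided, p = 0.70, p = 0.60 and p = 0.80). The muscle form made up at least 85.1% of the summed FPKM of these isozymes at the phosphofructokinase, aldolase, mutase and enolase steps in every pig. Hexokinase was the exception, with HK2 at 26.5% to 53.7% of the sum of HK2, HK1, HK3 and HKDC1.

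Markers of fibre type and fat are given beside these values. Of 7 fast fibre markers tested, all 7 had a log2 fold change below 0, as did 25.9% of all tested genes. Their median was -0.55, against 0.21 for all tested genes. PVALB, the calcium buffer parvalbumin, passed in the lower direction, as did 0.195% of all tested genes, with 6.93, 0.268 and 2.05 FPKM in LW63, LW70 and LW119, and 15.8, 12.9 and 11.7 FPKM in LW82, LW88 and LW90 (limma log2 fold change -2.92 ± 0.82 SE, adjusted p = 0.548). The most abundant fast marker, MYLPF, a light chain of fast myosin, had 6701 to 10034 FPKM in S-H and 7653 to 14386 FPKM in S-L. Summed over the list, fast fibre markers had 11780 to 17844 FPKM in S-H and 13785 to 30115 FPKM in S-L, with none at 0. MYH1, MYH2 and MYH4 have no entries of their own, and 1 Ensembl gene without a symbol spans all 3 RefSeq genes (chromosome 12, 55190429 to 55278539). Chosen after its values were seen, this fast myosin locus had 1193, 1718 and 705 FPKM in LW63, LW70 and LW119, and 1483, 1318 and 2065 FPKM in LW82, LW88 and LW90.

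All 9 slow fibre markers had a log2 fold change above 0, as did 74.1% of all tested genes (median of the 9, 0.51), none passed, and their sum was 9237 to 10871 FPKM in S-H and 6188 to 9575 FPKM in S-L. MYOZ2, a protein of the slow Z-disc, had the lowest p (limma log2 fold change 0.63 ± 0.25 SE, unadjusted p = 0.0291). CASQ2, the slow calsequestrin, had 1.27 to 3.14 FPKM in S-H and 0.532 to 1.73 FPKM in S-L. MYL2, the slow myosin light chain, was the most abundant at 2481 to 4553 FPKM. All 8 adipocyte markers tested were above 0 (median 1.72) and 5 passed, namely PLIN1, CIDEC, ADIPOQ, LEP and FABP4, where 1.17% of all tested genes passed in the higher direction. Their list summed to 445 to 1296 FPKM in S-H and 255 to 377 FPKM in S-L, with LW63 highest and none at 0. Of the other muscle fibre markers, 3 of 6 were below 0 and none passed, with ACTA1, skeletal actin, at 448 to 895 FPKM in S-H and 859 to 1731 FPKM in S-L (log2 fold change -0.97, unadjusted p of 0.0240 from limma). The part of fibre types and of fat cells in the values of LDHA, LDHB, PGAM1 and ALDOC was not tested.

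**Figure D4:**
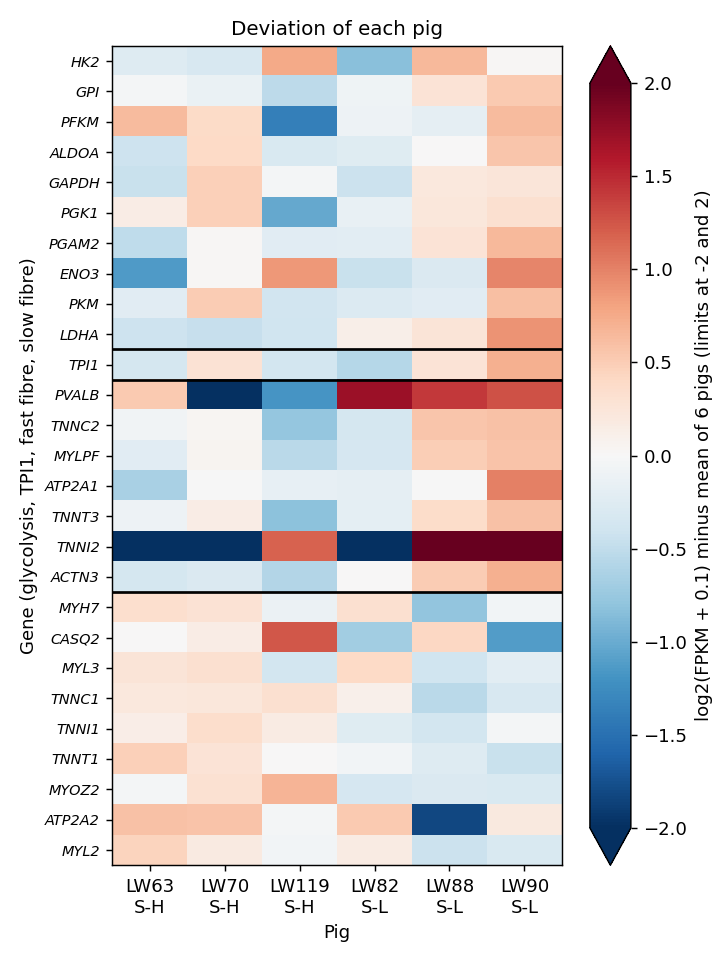
Deviation of each pig from the mean of the 6 pigs in log2(FPKM + 0.1), with 1 column per pig and 1 row per gene (the 10 enzymes, TPI1, fast fibre markers and slow fibre markers, parted by lines). LW90 is above the mean for most of the enzymes and fast fibre markers, and all S-H pigs are below the mean for LDHA while all S-L pigs are above it. Colours end at -2 and 2, which PVALB and TNNI2 exceed.

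Markers of other cells were counted in the same way. Of 6 endothelial markers, 5 were above 0 (74.1% of all tested genes were, median of the list 0.17). CLDN5, a junction protein, passed in the higher direction, as did 1.17% of all tested genes, with 22.2 to 29.7 FPKM in S-H and 3.77 to 12.6 FPKM in S-L (log2 fold change 1.87). The list summed to 120.0 to 135.6 FPKM in S-H and 73.0 to 110.1 FPKM in S-L. PECAM1 was the most abundant of them, at 33.6 to 67.3 FPKM. Fibroblast markers (6 of 7 above 0, median 0.48), macrophage markers (6 of 6, median 0.28) and red blood cell markers (4 of 4, median 0.54) held no gene that passed. The most abundant of each were DCN at 151.6 to 327 FPKM, CD163 at 3.28 to 14.8 FPKM and HBB at 137 to 600.4 FPKM. The lowest p of each belonged to THY1 (log2 fold change 0.84) and PDGFRA (0.81), to CD68 (0.82) and ADGRE1 (0.54), and to HBM (0.69) and HBB (0.70).

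Glucose enters muscle through transporters and lactate leaves through others. Of 8 tested genes of glucose uptake and lactate transport, 7 were above 0 (median 0.37), where 74.1% of all tested genes were, and none passed. SLC2A4, the insulin-responsive glucose transporter, had 104 FPKM in LW70 and 43.4 to 54.1 FPKM in the other pigs, and SLC16A7, a monocarboxylate transporter, had 1.44 to 6.64 FPKM (log2 fold change 0.89, unadjusted p of 0.0655 from limma). Of 9 regulators of glycolytic flux, 5 were above 0 (median 0.32) and none passed. FBP1, a fructose bisphosphatase of gluconeogenesis, was weak, at 1.18, 0.723 and 2.81 FPKM in LW63, LW70 and LW119 and 0.574, 0.499 and 0.0979 FPKM in LW82, LW88 and LW90 (limma log2 fold change 1.75 ± 0.58 SE, unadjusted p = 0.0125, adjusted p = 0.577). PFKFB3, which makes the activator of phosphofructokinase, was 1.90 to 2.35 FPKM in S-H and 1.18 to 1.71 FPKM in S-L.

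Beyond pyruvate, 12 of 15 genes of its entry into mitochondria were above 0 (median 0.15), again beside 74.1% of all tested genes, and none passed. PC, pyruvate carboxylase, which makes oxaloacetate from pyruvate, had 56.9, 18.3 and 16.9 FPKM in LW63, LW70 and LW119 and 14.7, 11.5 and 7.34 FPKM in LW82, LW88 and LW90 (log2 fold change 1.27, limma, unadjusted p = 0.0195, adjusted p = 0.577). The pyruvate dehydrogenase phosphatase PDP2 was at 0.389 to 1.51 FPKM (log2 fold change 0.88, unadjusted p of 0.0567 from limma). Citric acid cycle enzymes (15 of 16 above 0, median 0.18) and the cytosolic NADH shuttles (7 of 8, median 0.04) held no gene that passed, and their medians were below the 0.21 of all tested genes. SDHC and FH had the lowest p of the cycle, at log2 fold changes of 0.56 and 0.38. In the shuttles, GPD1, which also makes glycerol phosphate for fat synthesis, had a log2 fold change of 0.74 (unadjusted p of 0.0743 from limma) and the mitochondrial GPD2 of -0.47.

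Of 12 transcriptional regulators of glycolytic genes, 6 were below 0, as were 25.9% of all tested genes, and 1 passed in the lower direction, as did 0.195% of them. PPARGC1A, the coactivator PGC-1 alpha of mitochondrial genes, had 10.01, 22.4 and 15.1 FPKM in LW63, LW70 and LW119 and 25.5, 76.0 and 43.7 FPKM in LW82, LW88 and LW90. Every S-H pig was below every S-L pig, as for 1.7% of all tested genes (limma log2 fold change -1.54 ± 0.41 SE, unadjusted p = 0.00407, adjusted p = 0.533).

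The table gives values per transcript, and the 10 enzymes have 44 transcripts, of which 4 are listed at 0 in all pigs. Of the 34 tested with limma, none passed the thresholds (1.25% of all 40336 tested transcripts did, and 0.0843% had an adjusted p below 0.05) and none had an unadjusted p below 0.05. For 7 of the enzymes the same transcript led in all 6 pigs. For PFKM, LDHA and GAPDH it did not. The transcript PFKM-208 held 81.7%, 98.2%, 94.1% and 93.5% of PFKM in LW70, LW119, LW82 and LW88. In LW63 it held 0.0352% and PFKM-205 led with 73.3%, while in LW90 PFKM-207 led with 44.1%, ahead of PFKM-208 with 39.3%.

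For LDHA, ENSSSCT00000062740 held between 88.9% and 94.3% in 5 pigs and was listed at 0 in LW70, where ENSSSCT00000040830 held 83.2%. These transcripts overlap in position (40814170 to 40823499 and 40812453 to 40823622), and the gene sum of LW70 was level with those of LW63 and LW119. A value for the leading transcript alone was therefore far from that of the gene, with a log2 fold change of -4.62 for LDHA and -3.35 for PFKM (unadjusted p of 0.166 and 0.216 from limma). GAPDH was divided between ENSSSCT00000043083, with 48.8% to 58.6%, and ENSSSCT00000000756, with 41.4% to 51.2%. PKM was spread over more transcripts than any other of the 10, and its leading transcript ENSSSCT00000062838 held 47.1% to 55.7%.

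**Figure D5:**
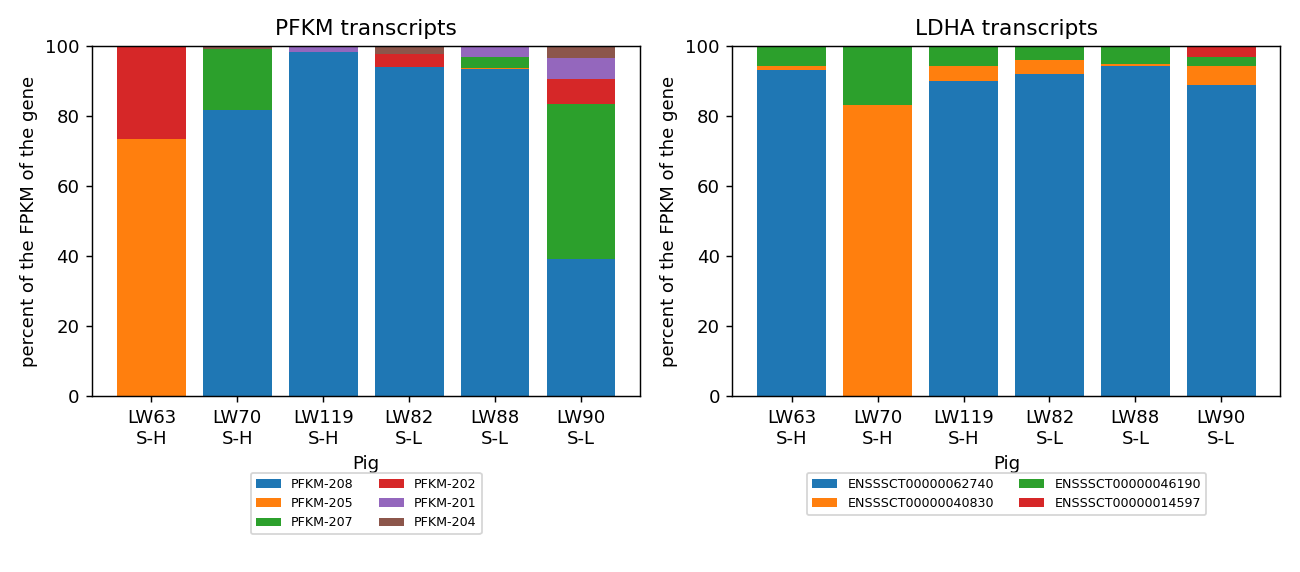
Share of each transcript in the FPKM of PFKM (left) and LDHA (right), in percent of the gene, with 1 stacked bar per pig and transcripts above 1% in at least 1 pig shown. PFKM is led by another transcript in LW63 and in LW90 than in the other 4 pigs, and LDHA by another transcript in LW70 than in the other 5.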

How the data were processed

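Strand-specific libraries without ribosomal RNA were sequenced by the authors, who used Hisat2 for alignment to Sscrofa11.1 and StringTie for assembly and quantification. The deposited values are FPKM for 83119 transcripts in each pig. The 21104 Ensembl transcripts that lack a symbol hold TPM instead, which was inferred from the values and from a gene table of the study. Those rows (GAPDH, PKM, LDHA and LDHB on chromosome 5 among them) were multiplied by 1 factor per pig, from 0.639 to 0.847, that makes the table sum up as FPKM. Read counts were not used here, so depth and counting error are unknown and precision is the spread between pigs. Nothing states that libraries were scaled to each other.

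Rows that share a gene ID were summed. Gene types, and names absent from the table, came from RefSeq tables of the same assembly, by gene ID, symbol or a reciprocal overlap of at least 50%. Protein-coding genes with a mean of at least 0.1 FPKM were tested by limma (version 3.58.1, R 4.3.3, trend in the variance) after taking log2(FPKM + 0.1), in place of the count test of the study. A fold change on this scale understates that of weak genes. A gene passed at the thresholds of the study, p below 0.01 without adjustment and a log2 fold change of 1 or more in size. Single values were compared by exact permutation in Python 3.11.15 with scipy 1.17.1. The 10 genes and all lists were chosen with earlier results of these data known. Named are the 10 genes, TPI1, the isozymes described, in each list the genes that passed or else the 2 with the lowest p, the most abundant marker of each cell type, and the 5 genes most like the 10. The limma step was tested on simulated data. SLC2A1, RYR1, TTN, CIDEA and HBA1 were not analysed here, and some isozymes are not reported here. Other settings were a pseudocount of 1 or 0.01, other minimums, TPM, median-ratio and quantile scaling, limma with no trend, limma with robust variances, the highest transcript, all annotated genes, deposited values and each pig left out.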

Additional observations from a re-analysis of the deposited data

How the results depend on the processing

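LDHA stayed lower in S-H in all 21 other settings. The S-H minus S-L difference in its log2 ratio to the other isozymes lay between -1.84 and -1.06 with each pig left out. No paired analysis was possible because no label ties pigs of S-H to pigs of S-L. The number of genes that passed was 78 with a pseudocount of 1, 264 with TPM, and between 88 (without LW90) and 263 (without LW82) with a pig left out. With quantile normalization, 1 of the 10 enzymes passed, LDHA. The difference of the summed share, 0.11 percentage points, was -0.90 without structural RNAs and between -0.31 and 0.60 with a pig left out. The smallest differences changed sign. GAPDH was 0.13 and PKM 0.076 (log2 fold change) with TPM and with the values as deposited. HK2 was -0.11 with size factors, -0.047 with quantile normalization and -0.012 with TPM without structural RNAs. GAPDH was 0 with quantile normalization, which is a tie and no change of sign. With a pig left out, the log2 fold change ranged from -0.28 to 0.46 for HK2, from -0.61 to 0.39 for PFKM, from -0.47 to 0.00406 for ALDOA, from -0.24 to 0.22 for GAPDH, from -0.57 to 0.18 for PGK1, from -0.63 to 0.37 for ENO3 and from -0.33 to 0.23 for PKM, while GPI, PGAM2 and LDHA kept their sign. The median of the 10 then lay between -0.47 and 0.02. TPM without structural RNAs, Ensembl transcripts only, ALDOA with its overlapping gene and LDHB on chromosome 5 only were chosen after seeing the data. The cause of these changes was not tested.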

Other observations

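Assembled transcripts that span the GAPDH locus but carry the IDs of neighbouring genes had high values. The 3 of them with a mean of at least 10 FPKM summed to 348, 1587 and 601 FPKM in LW63, LW70 and LW119 and to 372, 651 and 429 FPKM in LW82, LW88 and LW90, which is 2.72% to 8.55% of GAPDH. Of these, TCONS_00203341, which runs from 64021951 to 64134080 on chromosome 5, had 1433 FPKM in LW70, 76.7 FPKM in LW90 and 1.55 FPKM in LW88, while the other 3 pigs had 0. TCONS_00203368, which the table counts to IFFO1, had between 154 and 380.3 FPKM in every pig. A transcript counted to TAF9B, TCONS_00303718, lies within the PGK1 gene (chromosome X, 62187432 to 62210352) and had 9.75% to 13.1% of the level of PGK1. These values are part of the neighbouring genes in the sums used here and not of GAPDH or PGK1.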
